A study of Mus musculus with 21 samples.

Results

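Transcripts of 10 genes of the late, haploid phase of sperm formation were read in testis cells of mice too young to have made spermatids. The genes were Prm1, Prm2, Prm3, Tnp1, Tnp2, Acrv1, Spaca1, Odf1, Akap4 and Gapdhs, chosen by name and found in 10 of the 37620 rows of the RNA-seq table. The samples were germ cells enriched from testes of C57BL/6J (B6) males at 12 dpp (days post-partum) with collagenase and trypsin. Their labels carry 4 sample numbers (186wt, 343wt, 444wt, 456wt), and each number has 3 libraries. All had the same strain, age and preparation, and none was treated, so the sample number was the only grouping, and the comparison asks how far preparations of 1 kind differ. The values are FPKM, fragments per kilobase of transcript corrected for library size, and each number is given by the average of its 3 libraries. By the study's methods RNA came from 4 replicates, as many as there are sample numbers, and nothing states that the 3 libraries of a number came from separate animals. The p-values then measure only the spread between libraries, which may be technical.

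Spermatids are the haploid cells that follow meiosis. In them histones give way first to transition proteins and then to protamines, an acrosome forms over the nucleus, and a flagellum with its own glycolytic enzymes is built. Many of these genes are transcribed in pachytene spermatocytes or round spermatids and are translated later. At 12 dpp the first wave of germ cells in the mouse is in early meiotic prophase, before any cell has become haploid.

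The 10 genes were low. Their median was 0.153 FPKM, beside 0.195 FPKM over all genes of the table, and their summed level was 3.40 FPKM in 186wt, 3.91 in 343wt, 5.10 in 444wt and 4.27 in 456wt. The acrosomal gene Spaca1 made up 50.1% of that sum. A mean of at least 0.1 FPKM was reached by 7 of the 10 genes, beside 55.3% of all genes in the table, and 1 of them, Spaca1, reached 1 FPKM, beside 38.1% of all genes. Of the set, 9 genes were above 0 in at least 1 library, beside 72.3% of all genes, and Prm2 was listed at 0 in all 12 libraries. Zeros of this kind were common, with 27.7% of all genes in the table at 0 in all 12 libraries. None of 80 ribosomal protein genes was below 0.1 FPKM.

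In order of mean level, Spaca1 stood at 2.09 ± 0.369 FPKM (SD, n = 4), Tnp1 at 0.960 ± 0.590 and Gapdhs at 0.469 ± 0.154. Odf1 and Prm1 followed at 0.163 ± 0.0392 and 0.163 ± 0.186, then Akap4 at 0.143 ± 0.0514 and Tnp2 at 0.126 ± 0.0699. Acrv1 stood at 0.0400 ± 0.0245, Prm3 at 0.0167 ± 0.0333 and Prm2 at 0. Of the neighbours in this order, Gapdhs and Odf1 did not overlap over the 4 sample numbers, nor did Tnp2 and Acrv1. All other neighbours overlapped, so the order from Odf1 to Tnp2 is not resolved.

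**Figure D1:**
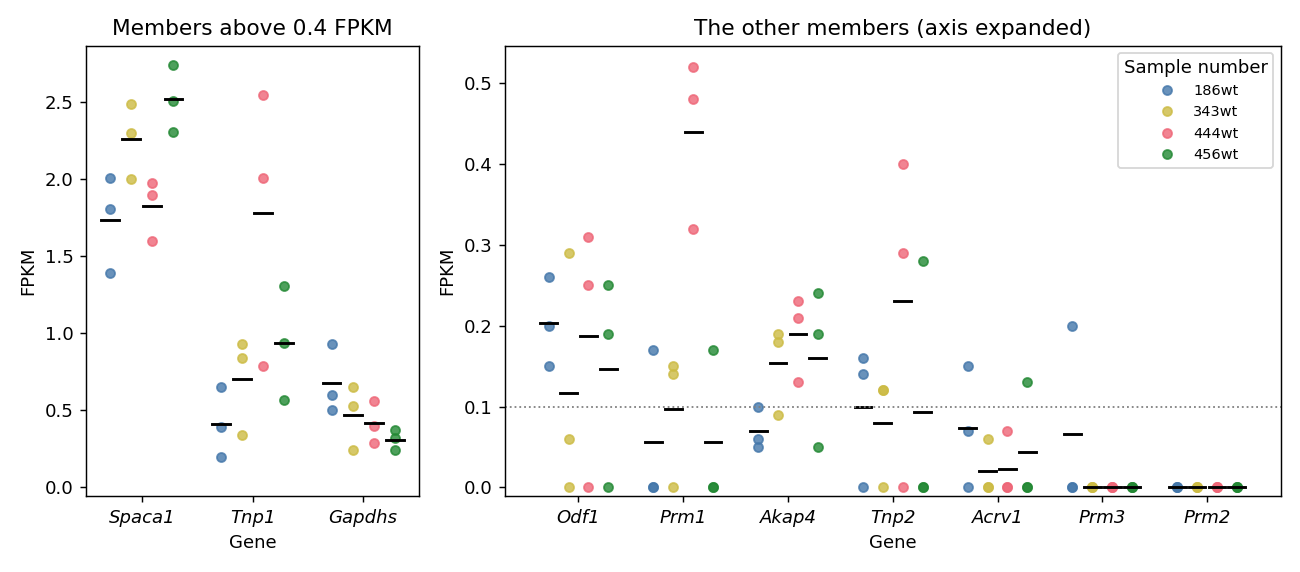
FPKM (vertical axes) of the 10 genes in each of 12 libraries (points, coloured by sample number), with the mean of the 3 libraries as a black bar and 0.1 FPKM as a dotted line. Spaca1 was above 1 FPKM in all 12 libraries, Prm1 was highest in the 3 libraries of 444wt, and Prm2 was at 0 in every library.

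The depth sets how firmly these levels can be read. Low values in the table rise in steps of 1 fragment, and from the size of these steps the libraries were estimated to hold 12.8 to 17.9 M (mega) fragments each and 181 M in all. For the 7 genes with 1 annotated transcript, 41 of 84 values were above 0, and each of these came out as a whole number of fragments to within 0.104. Together these genes held 125 fragments in the 12 libraries. Intervals given with fragments are exact 95% Poisson intervals and cover counting error only.

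The protamines are small arginine-rich proteins that package sperm DNA. Their genes Prm1, Prm2 and Prm3 lie with Tnp2 in 1 cluster, in NCBI build 37 at chr16:10796419-10796979, chr16:10791476-10792198, chr16:10790600-10791006 and chr16:10788029-10788748, all on the minus strand and each with 1 annotated transcript. Prm1 measured 0.17, 0 and 0 FPKM in the libraries of 186wt and 0, 0.15 and 0.14 in those of 343wt. It measured 0.32, 0.48 and 0.52 FPKM in 444wt and 0, 0.17 and 0 in 456wt. The lowest library of 444wt was thus above the highest of the other numbers. In fragments this was 1 in 186wt, 2 in 343wt, 8 in 444wt (interval 3.45 to 15.8) and 1 in 456wt, 12 in all, and the interval of 444wt overlapped those of the other numbers, such as 0.242 to 7.22 in 343wt.

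Prm2, a protamine that is made as a longer precursor, had no fragment in any library. A count of 0 allows up to 3 fragments, which over the 12 libraries is a level of up to 0.0297 FPKM, and the exact interval, as in the plot of fragments, ends at 3.69 fragments or 0.0365 FPKM. Prm3, whose product is acidic despite its name, had 0.20 FPKM in the first library of 186wt, which is 1 fragment, and 0 in the other 11.

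Transition proteins replace histones before the protamines arrive. Tnp1 (chr1:73061657-73062473, minus strand) was the highest of the chromatin genes and was above 0 in all 12 libraries. It measured 0.39, 0.20 and 0.65 FPKM in 186wt, 0.34, 0.84 and 0.93 in 343wt, 2.55, 2.01 and 0.79 in 444wt, and 0.94, 0.57 and 1.31 in 456wt. The first and second libraries of 444wt stood above all others, while the third lay within the range of 343wt and 456wt. The fragments were 6 (interval 2.20 to 13.1), 13 (6.92 to 22.2), 29 (19.4 to 41.6) and 15 (8.40 to 24.7) in the same order of numbers. The intervals of 186wt and 444wt did not overlap, and each of them overlapped those of 343wt and 456wt.

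Tnp2, the second transition protein gene, rested on 11 fragments. It measured 0.14, 0 and 0.16 FPKM in 186wt and 0.12, 0.12 and 0 in 343wt. It measured 0.40, 0 and 0.29 FPKM in 444wt and 0, 0.28 and 0 in 456wt. Each number had at least 1 library at 0, and the libraries of the 4 numbers overlapped. Summed, the protamine and transition protein genes came to 0.637, 0.880, 2.45 and 1.09 FPKM in 186wt, 343wt, 444wt and 456wt.

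**Figure D2:**
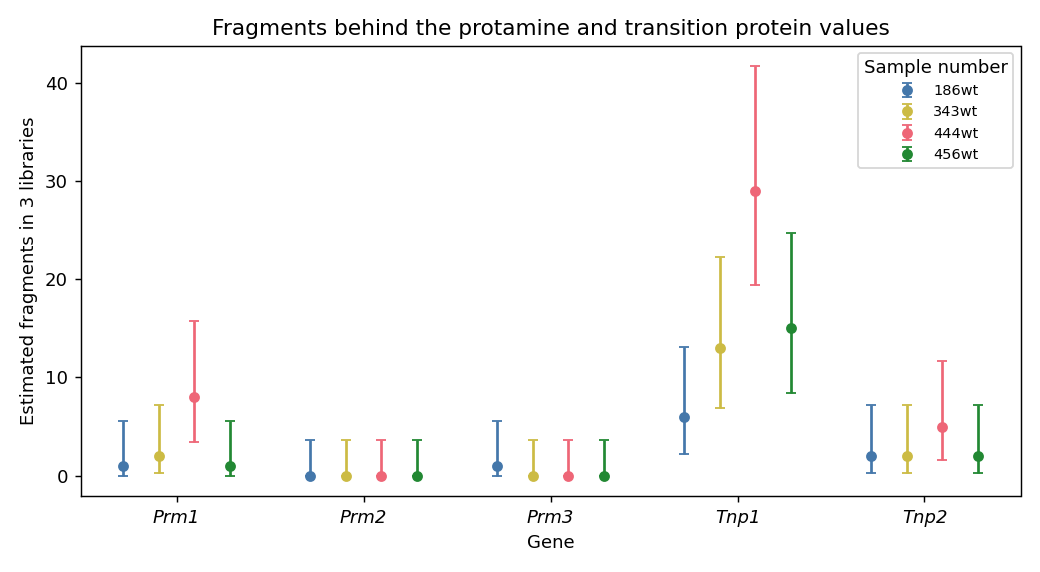
Estimated fragments in the 3 libraries of each sample number (vertical axis) for the protamine and transition protein genes, with exact 95% Poisson intervals as bars. Tnp1 had 29 fragments in 444wt and 6 in 186wt, Prm1 had 8 in 444wt and 1 or 2 in the others, and Prm2 had 0 in every number.

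Genes beside the cluster ranged from 0 to 16.7 FPKM. Socs1, an inhibitor of cytokine signalling, lies 2400 bases from Tnp2 and had 9.06 ± 1.79 FPKM (SD, n = 4), and Clec16a, 43058 bases from Tnp2, had 16.7 ± 0.617 FPKM. On the other side of Prm1 the gene models Gm10343 and Gm11172 had 0.351 ± 0.205 and 0 FPKM, and A630055G03Rik had 1.93 ± 0.399 FPKM. The 4 cluster genes thus had means of 0 to 0.163 FPKM, under those of Socs1 and Gm10343 on either side, but not under Gm11172 at 0. In 444wt Gm10343 had 0.117 FPKM, and Prm1 and Tnp2 were above it. The fragments behind Gm10343 were not estimated, so how firm its low values are is not known. Tnp1, Odf1 and Spaca1 had no protein-coding neighbour within 50 kb.

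**Figure D3:**
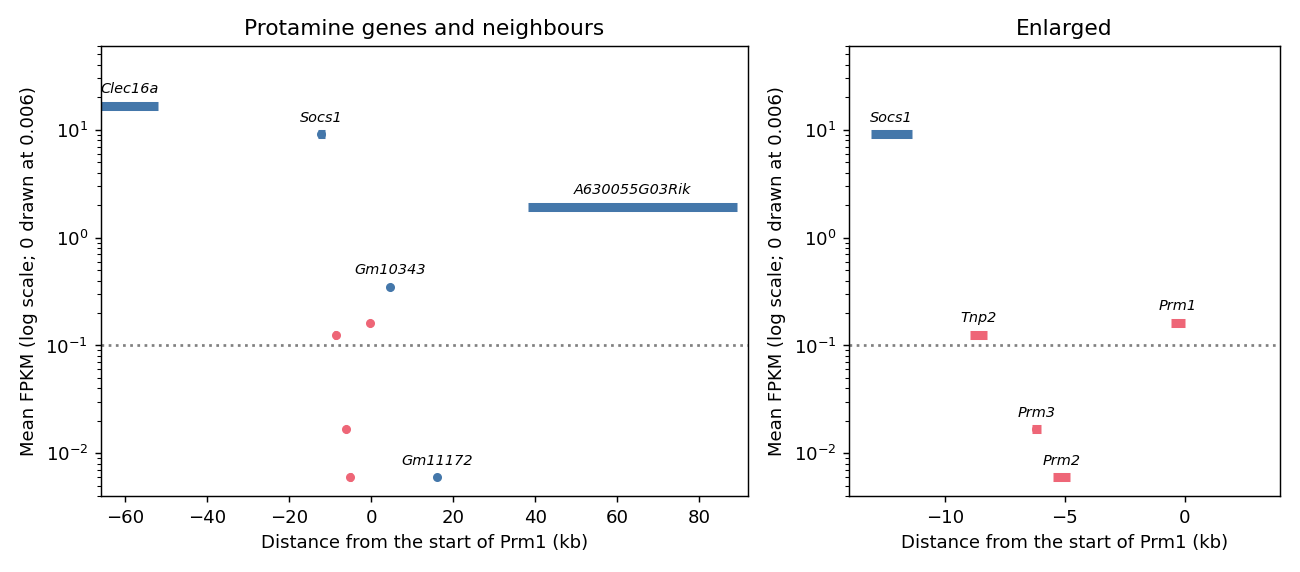
Mean FPKM over the 4 sample numbers (vertical log axis, a value of 0 drawn at 0.006) against the distance from the start of Prm1 in kb, for the cluster genes (red) and the protein-coding genes within 50 kb (blue), with dots marking gene midpoints, 0.1 FPKM dotted and the cluster enlarged at the right. Prm1, Prm2, Prm3 and Tnp2 lay at or under 0.163 FPKM and Socs1 at 9.06 FPKM.

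The promoter sequences show how these genes begin, and those of Prm1, Prm2, Tnp1, Tnp2 and Spaca1 are given because the results turn on them. They are the 150 bases before the RefSeq start in GRCm38.p6, 5′ to 3′ on the gene's strand, with capitals marking matches on either strand to the 4 motifs searched: the cyclic AMP response element (CRE) TGACGTCA, its half-site TGACG, the TATA box TATAAA and the GC box GGGCGG. A full CRE contains the half-site.
Prm1: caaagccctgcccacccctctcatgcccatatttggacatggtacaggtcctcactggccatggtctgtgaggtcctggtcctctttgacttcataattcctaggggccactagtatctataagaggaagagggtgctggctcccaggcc
Prm2: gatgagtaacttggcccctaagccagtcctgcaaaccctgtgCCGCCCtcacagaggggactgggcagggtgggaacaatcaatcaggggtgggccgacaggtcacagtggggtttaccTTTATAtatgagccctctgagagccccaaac
Tnp1: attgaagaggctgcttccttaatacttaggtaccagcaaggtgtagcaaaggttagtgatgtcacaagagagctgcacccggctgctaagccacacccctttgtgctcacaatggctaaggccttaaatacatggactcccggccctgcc
Tnp2: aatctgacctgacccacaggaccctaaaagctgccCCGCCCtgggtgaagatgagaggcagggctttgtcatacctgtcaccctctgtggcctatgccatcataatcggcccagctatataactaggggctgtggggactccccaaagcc
Spaca1: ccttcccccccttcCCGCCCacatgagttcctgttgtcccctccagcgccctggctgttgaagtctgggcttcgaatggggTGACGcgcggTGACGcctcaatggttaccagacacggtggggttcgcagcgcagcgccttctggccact

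In GRCm38.p6 these stretches are chr16:10796824-10796973 for Prm1, chr16:10792106-10792255 for Prm2, chr1:73015900-73016049 for Tnp1, chr16:10788656-10788805 for Tnp2 and chr4:34050066-34050215 for Spaca1, all on the minus strand. RefSeq promoters were matched for 9 of the 10 genes, with 12 entries, and Odf1 was not matched. Over the 250 bases before the start, none of the 12 entries held the full CRE, which 1.55% of all 32851 promoters of the table hold. The half-site was present in Spaca1 alone, with 2 matches in each of its 2 entries, and in 17.8% of all promoters. The TATA box was present in Prm2 alone, on the opposite strand 26 to 31 bases before the start, and in 12.4% of all promoters. The GC box was present in Prm2, Tnp2 and Spaca1 and in 32.7% of all promoters. Spaca1, the highest of the 10 genes, also had the highest share of G and C in these 250 bases, 62.4% and 62.8% in its 2 entries, beside a median of 52.4% over all promoters. Only exact copies of the motif letters were counted, so variants were not, and the lack of a match does not show that an element is absent. A match is a description of these letters and not a site of binding.

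Spaca1 codes for a membrane protein of the acrosome that is needed to shape the sperm head (chr4:34111849-34137166 in NCBI build 37, minus strand, 4 annotated transcripts). It measured 2.01, 1.39 and 1.81 FPKM in 186wt and 2.3, 2.49 and 2 in 343wt. It measured 1.9, 1.6 and 1.98 FPKM in 444wt and 2.74, 2.31 and 2.51 in 456wt. The libraries of 456wt were above all those of 186wt and 444wt and overlapped those of 343wt. The values correspond to about 358 fragments, an approximation because the gene has several transcripts, and the sample means spanned 1.45-fold, whereas those of Tnp1 spanned 4.31-fold.

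Acrv1, a protein of the acrosomal matrix (chr9:36500805-36506422, plus strand), was the other acrosomal gene of the set and was near 0. It was listed at 0 in 7 libraries and between 0.06 and 0.15 FPKM in the rest, 7 fragments in all. Its neighbours Chek1, a checkpoint kinase, and Stt3a, a subunit of the enzyme that glycosylates proteins, had 22.3 ± 5.60 and 59.4 ± 5.85 FPKM.

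Odf1 is a major protein of the outer dense fibres that line the sperm tail (chr15:38148958-38156490, plus strand). It measured 0.26, 0.20 and 0.15 FPKM in 186wt, 0.06, 0.29 and 0 in 343wt, 0.25, 0.31 and 0 in 444wt, and 0.19, 0 and 0.25 in 456wt, 31 fragments in all. The 4 numbers overlapped throughout. Akap4, the scaffold of the fibrous sheath of the tail, is X-linked (chrX:6644645-6655735, plus strand) and lay between 0.05 and 0.24 FPKM in all 12 libraries, with sample means of 0.07, 0.153, 0.19 and 0.16 FPKM and about 75 fragments. Its neighbour Ccnb3, a cyclin of early meiosis, had 5.34 ± 2.65 FPKM.

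Gapdhs is the sperm form of glyceraldehyde-3-phosphate dehydrogenase and is bound to the fibrous sheath (chr7:31514799-31528700, minus strand). It measured 0.93, 0.60 and 0.50 FPKM in 186wt, 0.53, 0.65 and 0.24 in 343wt, 0.29, 0.56 and 0.40 in 444wt, and 0.32, 0.24 and 0.37 in 456wt. The libraries of 186wt lay above those of 456wt, and the other numbers overlapped both. Its neighbour Tmem147, 246 bases away on the same strand, had 68.6 ± 3.62 FPKM. The other neighbours within 50 kb ran from Krtdap at 0 and Gm4883 at 0.133 FPKM through Dmkn at 1.13, Sbsn at 2.09 and 2200002J24Rik at 2.58 to Atp4a at 3.30 FPKM.

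Differences between the 4 sample numbers were tested with limma's moderated F-test on log2(FPKM + 0.1) over the 20795 genes whose mean reached 0.1 FPKM. Over all genes, 58.2% were called at a Benjamini-Hochberg adjusted p under 0.05. Of the set, 5 genes reached that mean also without 444wt, and Spaca1 (adjusted p = 0.0271) and Tnp1 (0.0393) were called among them, while Gapdhs (0.177), Akap4 (0.342) and Odf1 (0.802) were not. Prm1 and Tnp2 reached it only through 444wt, where they were highest, with means of 0.0700 and 0.0911 FPKM over the other 3 numbers, so a count that includes them says nothing of the set. Without the limit on the mean, over the 27197 genes above 0 in any library, the adjusted p of the F-test was 0.0290 for Prm1. In that fit Spaca1 (0.0444) was still called, and Tnp1 (0.0581) and Tnp2 (0.769) were not. Acrv1, Prm2 and Prm3 were below the limit.

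Each number was then compared with the mean of the other 3 in the same limma fit, and the 4 contrasts share libraries. 444wt was higher in Tnp1 by 1.26 ± 0.40 on the log2 scale (SE, adjusted p = 0.0242), beside 26.5% of all genes called higher in 444wt. The Prm1 value of 444wt differed by 1.81 ± 0.46, with an adjusted p of 0.00714 in the fit without the limit on the mean, and rests on 8 fragments against 4. The size of these differences depends on the pseudocount and scaling: for Prm1 it ran from 0.43 with a pseudocount of 1 to 3.66 with 0.01 and was 2.38 at a common total, and for Tnp1 it ran from 0.69 with a pseudocount of 1 to 1.73 without the third library of 444wt. 186wt was lower in Tnp1 (-1.18 ± 0.40, adjusted p = 0.0397), beside 21.9% of all genes. 456wt was higher in Spaca1 (0.37 ± 0.12, adjusted p = 0.0310), beside 22.9% of all genes. In none of the other directions was a gene of the set called, beside 14.8% of all genes higher in 186wt, 14.5% higher and 25.6% lower in 343wt, 17.8% lower in 444wt and 13.6% lower in 456wt. At an unadjusted p under 0.05 in limma, these directions held Gapdhs in 186wt alone (higher by 0.65 ± 0.28, unadjusted p = 0.0390).

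The Tnp1 difference in 444wt stayed under 0.05 in 18 of 21 alternatives (adjusted p 0.00684 to 0.135). It was lost without the first library of 444wt (0.95, adjusted p = 0.135), without the second (1.11, adjusted p = 0.10) and without 186wt (0.98, adjusted p = 0.0890). The Spaca1 difference in 456wt held in 17 of 22 alternatives (0.0188 to 0.205) and the Tnp1 difference in 186wt in 8 of 21 (0.0141 to 0.194).

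**Figure D4:**
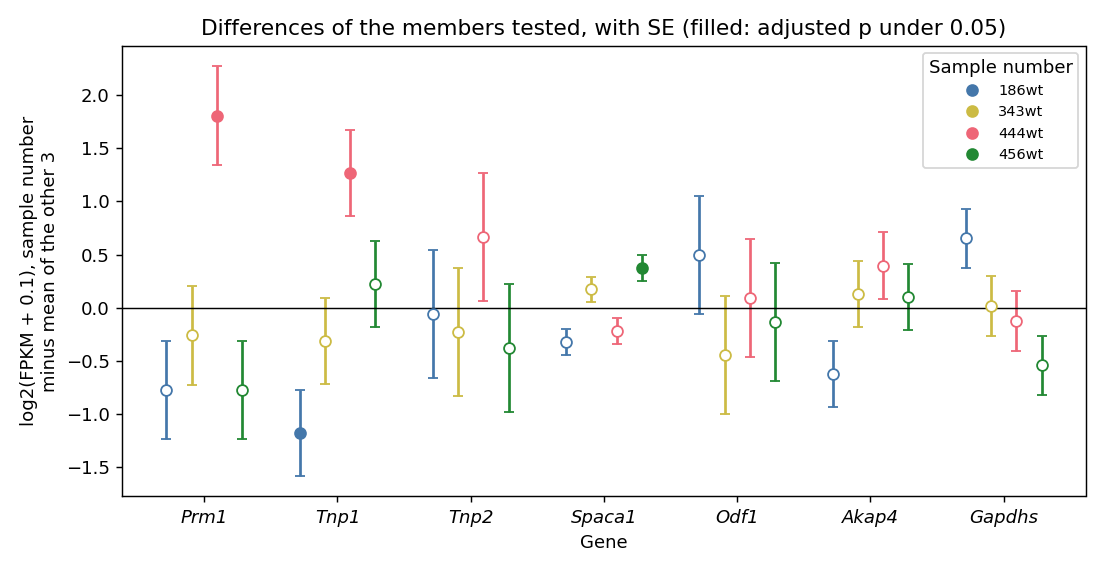
Difference in log2(FPKM + 0.1) of each sample number from the mean of the other 3 (vertical axis), with SE bars, for the 7 genes tested, filled where the adjusted p is under 0.05. The differences in 444wt are 1.81 for Prm1 and 1.26 for Tnp1, where Prm1 and Tnp2 reached the limit only through that number, Tnp1 is lower in 186wt and Spaca1 is higher in 456wt.

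Related genes were read from lists of spermatid biology that do not hold the 10 genes. Of 74 such genes, 54 (73.0%) had a mean of at least 0.1 FPKM and 5 were at 0 in all libraries. Each list held genes above Spaca1, and each except the regulators also held genes under 0.1 FPKM.

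For spermatid chromatin, 5 of 7 genes reached 0.1 FPKM, with a list median of 3.96 FPKM. Kdm3a, a histone demethylase that acts on Tnp1 and Prm1, had 29.4 ± 2.31 FPKM (SD, n = 4), the bromodomain protein gene Brdt had 12.7 ± 1.57 and the kinase gene Camk4 had 4.66 ± 1.05. All 5 genes tested were called by the F-test, beside 58.2% of all genes. Of them 3 were higher in 444wt, beside 26.5% of all genes, and 4 lower in 343wt, beside 25.6%.

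Among regulators of the spermatid programme all 13 genes reached 0.1 FPKM, with a median of 6.91 FPKM. Taf7l, a germ cell subunit of the general transcription machinery, had 128 ± 26.7 FPKM, the mRNA-binding protein gene Ybx2 had 61.9 ± 14.2 and the RNA helicase gene Ddx25 had 29.9 ± 5.91. By the F-test 11 of 13 were called, beside 58.2% of all genes. Of these genes 6 were higher and 1 lower in 444wt, 6 higher and 1 lower in 456wt, 2 higher and 2 lower in 186wt, and 9 lower in 343wt, where 25.6% of all genes were lower.

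Of the acrosome list, 13 of 19 genes reached 0.1 FPKM (median 1.07 FPKM), led by Agfg1 at 26.7 ± 1.87, Pick1 at 25.4 ± 2.92 and Gopc at 9.81 ± 0.517 FPKM, which act in vesicle traffic and are also used in other cells. Of the flagellum list, 17 of 25 genes reached it (median 0.715 FPKM), led by Odf2 at 50.6 ± 2.11, a gene also used at centrosomes, Rsph1 at 21.7 ± 4.70 and Meig1 at 15.4 ± 3.57 FPKM. Of the list of sperm energy metabolism, 6 of 10 reached it (median 0.277 FPKM), led by Cox6b2 at 23.7 ± 5.90, Cyct, the testis cytochrome c, at 15.2 ± 3.63 and Ldhc, the testis lactate dehydrogenase, at 7.18 ± 4.83 FPKM. The F-test called 11 of 13 acrosomal, 12 of 17 flagellar and 6 of 6 metabolic genes, beside 58.2% of all genes.

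In 444wt, where Prm1 and Tnp1 were highest, the lists of related genes were called in both directions, beside 26.5% of all genes higher and 17.8% lower. Of spermatid chromatin 3 of 5 genes were higher and none lower, and of the regulators 6 of 13 were higher and 1 lower. Of the acrosome list 4 of 13 were higher and 5 lower, of the flagellum list 4 of 17 were higher and 4 lower, and of the metabolic list 2 of 6 were higher and 3 lower. Ldhc measured 5.96, 7.42, 1.84 and 13.5 FPKM in 186wt, 343wt, 444wt and 456wt, and was lower in 444wt by limma (-2.14 ± 0.07, adjusted p = 2.05e-09) and higher in 456wt (1.61 ± 0.07, adjusted p = 1.84e-08). Crisp2, Odf4, Acr, Spink2 and Adam2, named here after their values were seen, were also lowest in 444wt and highest in 456wt. Crisp2, a secreted acrosomal and tail protein, measured 0.863, 1.09, 0.110 and 2.20 FPKM, Acr, the acrosomal protease acrosin, 0.533, 0.707, 0.157 and 1.00 FPKM, and Adam2, a sperm surface protein, 2.29, 2.35, 0.657 and 4.61 FPKM. Since they were picked for that order, their values are a description. Other genes of these lists, also named after their values were seen, were highest in 444wt: Zpbp2, an acrosomal protein, measured 0.943, 0.777, 1.79 and 1.38 FPKM, Izumo1, the sperm protein that binds the egg, 1.31, 0.73, 1.79 and 1.45 FPKM, and Cyct 12.8, 11.8, 19.6 and 16.7 FPKM. Spaca1 was likewise highest in 456wt, but was lowest in 186wt.

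The cell type markers put these levels in context. All 10 spermatogonial markers and all 15 markers of early meiotic prophase were at 0.1 FPKM or above, with medians of 33.9 FPKM in both lists. Uchl1 at 371, Dmrt1 at 144 and Sohlh1 at 49.6 FPKM led the first and Stra8 at 103, Sycp3 at 73.1 and Tex15 at 69.2 FPKM the second. Of the pachytene list, 9 of 9 reached 0.1 FPKM with a median of 2.76 FPKM, led by Tex101 at 264, Hspa2 at 36.8 and Clgn at 15.9 FPKM. The lowest of that list were Hist1h1t at 0.133, Adam3 at 0.218 and Ccna1 at 0.590 FPKM. The cells were not free of somatic cells: the 9 Sertoli cell markers in the table had a median of 70.1 FPKM, led by Clu at 1844, Aard at 580 and Cst12 at 547 FPKM. No marker of these lists was at 0 in all libraries, and Adam3 of the pachytene list was at 0 in 444wt.

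Somatic and germ cell markers moved with the sample numbers. In 444wt, where Prm1 and Tnp1 were highest, 14 of 15 early meiotic markers were called higher and their summed level was 742 FPKM, beside 448 to 547 FPKM in the other numbers. All 9 Sertoli cell markers were called lower there, with a summed level of 2367 FPKM beside 2525 to 4217 FPKM. So were all 6 Leydig cell markers (16.1 FPKM beside 56.5 to 110), all 5 endothelial markers (13.3 beside 16.0 to 33.5) and 4 of 5 macrophage markers (5.02 beside 9.18 to 19.99). Of the spermatogonial markers 7 of 10 were called higher in 444wt (852 beside 614 to 770 FPKM), and of the pachytene markers 1 was higher and 4 were lower (329 beside 224 to 396 FPKM). Of the myoid markers 3 of 5 were higher in 444wt, and of the erythroid markers 2 of 3. The highest markers of these minor cell types over all 4 numbers were Hsd3b1 at 15.6, Insl3 at 15.5 and Star at 11.7 FPKM for Leydig cells, Cdh5 at 9.68, Pecam1 at 4.06 and Kdr at 3.59 for endothelium, and C1qa at 5.47, Cd68 at 2.95 and Csf1r at 2.78 for macrophages.

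In 456wt, where Spaca1 was highest, 6 of 9 pachytene markers were called higher, as were all 5 peritubular myoid markers (summed level 1112 FPKM beside 253 to 670), all 5 endothelial markers, 9 of 10 spermatogonial markers and 4 of 5 macrophage markers, while all 9 Sertoli cell markers were lower. Of the early meiotic markers 2 of 15 were higher and 7 lower there. The myoid list was led by Acta2 at 473, Myh11 at 79.0 and Tagln at 66.9 FPKM over the 4 numbers. The erythroid list, led by Hbb-b1 at 36.3, Hba-a1 at 30.4 and Alas2 at 1.04 FPKM, summed to 124 FPKM in 456wt beside 21.5 to 66.7. In 186wt, where Tnp1 was lowest, 9 of 10 spermatogonial markers were lower and all 9 Sertoli cell markers higher. Of the early meiotic markers 7 of 15 were higher and 4 lower there. In 343wt, where no gene of the set was called, all 15 early meiotic and 7 of 10 spermatogonial markers were lower, beside 25.6% of all genes. All 9 Sertoli and all 6 Leydig cell markers were higher there, beside 14.5% of all genes. The part of these cell types in the values of Prm1, Tnp1 and Spaca1 was not tested. In bulk RNA, fewer cells of a type and less RNA per cell cannot be told apart.

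**Figure D5:**
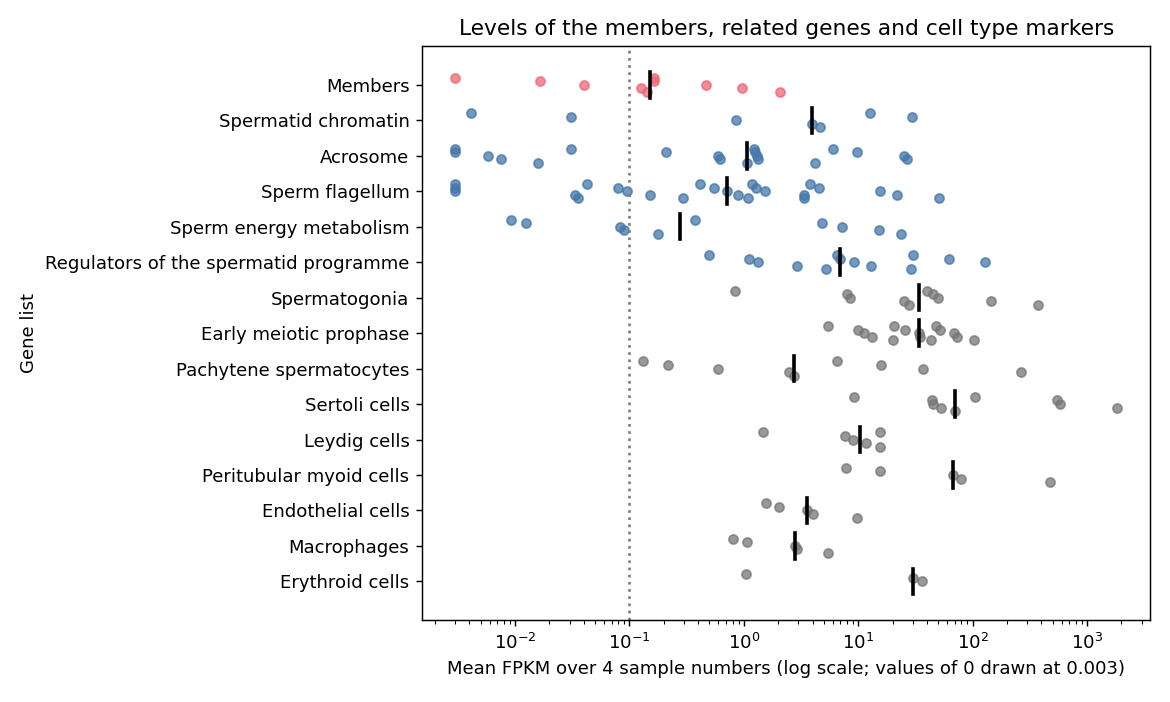
Mean FPKM over the 4 sample numbers (horizontal log axis, values of 0 drawn at 0.003) of the 10 genes (red), of 5 lists of related genes (blue) and of 9 lists of cell type markers (grey), 1 point per gene, with the list median as a black bar and 0.1 FPKM dotted. The median of the 10 genes, 0.153 FPKM, is below that of every list.

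By pattern over the 4 numbers, the genes most like Spaca1 among the 14347 other genes at 1 FPKM or above were Anxa5, Fmo1, Pxk, Mylpf and Ephx2. The measure was the root mean square difference of log2(FPKM + 0.1), centred on each gene's mean, and ran from 0.0209 for Anxa5 to 0.0333 for Ephx2. Anxa5 measured 28.2, 34.9, 29.0 and 39.3 FPKM in 186wt, 343wt, 444wt and 456wt. With only 4 points from the same libraries, likeness of this kind is a description.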

How the data were processed

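RNA-seq values of 12 libraries were used; the 9 other samples of the series were not analysed here. Per the paper's methods and the submitters' processing notes, the authors aligned 100-bp reads to the NCBI build 37 (mm9) transcriptome with Bowtie 0.12.9, dropped those with 2 or more mismatches, and quantified genes as FPKM by RSEM 1.2.8, given fragments of 280 ± 50 bp. The deposited FPKM have 2 decimals. A strand setting is not given in the sources used here, so overlapping genes may share reads, and RSEM divides reads among near-identical transcripts.

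The 3 libraries of a number were averaged. Differences were tested with limma 3.58.1 (lmFit, eBayes with trend) in R 4.3.3 on log2(FPKM + 0.1), for genes whose mean reached 0.1 FPKM, with Benjamini-Hochberg adjustment over all genes, and tested on simulated data. Depth was estimated in Python 3.11.15 from genes with 1 transcript of 250 to 500 bases. Positions are from GENCODE M1, and promoters from RefSeq. The alternatives were other pseudocounts, filters and scalings, the library number as a block, and leaving out libraries or sample numbers.

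The genes and lists were chosen with earlier results of these data known. Named besides the 10 genes were the 3 highest genes of each list, neighbours within 50 kb and the 5 genes most like Spaca1. Some others, among them the lowest pachytene markers, were named after their values were seen.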

Additional observations from a re-analysis of the deposited data

Results flagged for a closer look

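For 89 sets of 4 sample values, the highest or lowest value was compared with the nearest other (Dixon's ratio of that gap to the range), and 7 were beyond the 95% critical value. Chance alone puts about 1 in 20 beyond it. Prm1 (ratio 0.896) and Tnp2 (0.867) stood apart in 444wt, with 0.440 and 0.230 FPKM. The sum of the 9 genes without Spaca1 did so too (0.934), at 3.27 FPKM in 444wt beside 1.64 to 1.75 FPKM in the others. In 444wt Tnp2 rested on 5 fragments, beside 2 in each of the other numbers, and 1 of its libraries was at 0. Without the limit on the mean, limma's F-test did not call Tnp2 (adjusted p = 0.769). Prm3 (1.000) was above 0 in 186wt alone, through 1 fragment. The other flagged values were high in 456wt: the median of the endothelial markers (0.870), its gene Kdr (0.870) and the erythroid gene Alas2 (0.929). The endothelial median is the Kdr value itself in every sample number. The sum without Spaca1 holds Prm1 and Tnp2, and its largest part in 444wt was Tnp1 at 1.78 FPKM. The 7 flags are thus not independent, and their number cannot be set against 1 in 20.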

How the results depend on the processing

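The number of genes that differ between the sample numbers was 12107, and 9848 to 12146 over 23 alternatives, and the counts of the 4 contrasts stayed within 1.5 times. Of the 7 genes of the set that were tested, 3 were called, beside 58.2% of all genes. Among them was Prm1, which reached the limit only through 444wt, so this count says nothing of the set. The count was 0 to 3 of 7 with a library left out, beside 11433 to 11780 called of 20742 to 20779 genes tested. None was called without the first library of 456wt (limma adjusted p 0.0503 to 0.0772 for the 3) and 1 without the first or second of 444wt. Leaving out 444wt left 1 of 5 genes tested, beside 9848 of all 20628. With the limit of 1 FPKM only 1 gene of the set was tested, and it was called, beside 11136 of all 14348. The replicate block left 1 of 7, beside 11774 of all 20795. In each case the gene called was Spaca1. Libraries with the same library number (the suffix of the label) but different sample numbers deviated together by r from -0.0648 to 0.128 over 18 pairs. The library number was therefore not taken to pair libraries across sample numbers. Prm1 missed the F-test threshold in 7 of 21 alternatives, Tnp1 in 10 of 22 and Spaca1 in 3 of 23. No difference of the set reversed. The count of genes at 0.1 FPKM or above was 7, and was 1 at 1 FPKM and 4 when required in every sample number. Rescaling each library to a total of 1 M raised the summed level from 4.17 to 8.66. The deposited FPKM of a library sum to 477629 to 485096, so this rescaling raises all genes of a library by the same factor. The fragment counts took 60.9 bases off each transcript length, a value estimated together with the depth. With the stated 280 bp taken off in its place and the depth kept, the 125 fragments of the single-transcript genes became 66.0. The 1 fragment of Prm3 then came to 0.367, not a whole number, so the 2 settings do not belong together. At this depth 1 fragment was worth 0.137 to 0.191 FPKM for Prm1 in a library, so its single values are not resolved.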
